A study of Homo sapiens with 12 samples.

Results

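The genes described here were 36 genes of the endoplasmic reticulum (ER) chaperone system and the unfolded protein response, taken by gene symbol from a list of ER chaperones, ER-associated degradation genes and unfolded protein sensors. All 36 were found among the 58735 genes of the count table. They were measured by mRNA sequencing of HK-2 cells, an immortalized line of human renal proximal tubular epithelial cells, in 4 groups of 3 samples. Control cells received water (H2O). The other groups received iohexol at 75 mg I/mL, an iodinated contrast agent, cisplatin at 5 μM, a platinum drug that crosslinks DNA, or vancomycin at 4 mM, a glycopeptide antibiotic, each for 48 h, and served as cell models of drug-induced acute kidney injury. All samples came from the same line, so spread between donors was not measured, and each drug was used at 1 dose and 1 time.

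Secreted and membrane proteins enter the ER through the SEC61 translocon and fold there with the help of the Hsp70 chaperone BiP (HSPA5), the Hsp90 chaperone GRP94 (HSP90B1), the lectins calnexin and calreticulin, and protein disulfide isomerases. When unfolded proteins accumulate, the membrane sensors IRE1 (ERN1), PERK (EIF2AK3) and ATF6 are activated. IRE1 splices XBP1 mRNA, PERK phosphorylates the initiation factor eIF2alpha and thereby raises translation of ATF4, and ATF6 is cut in the Golgi to release a transcription factor. The resulting program raises chaperones and the ER-associated degradation machinery, which carries misfolded proteins back to the cytosol. Proximal tubule cells carry a high load of membrane transporters and receptors, and ER stress has been studied widely in kidney injury.

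Library totals ran from 14235479 to 16589507 counts for control samples, and iohexol libraries held 14057282 to 15071433, cisplatin libraries 14466712 to 15057150 and vancomycin libraries 16738188 to 18177109 counts. Iohexol 3 stood apart from its group: a chi-square comparison of counts over genes gave 17.5 (with Iohexol 1) and 16.5 (with Iohexol 2) per degree of freedom, beside 3.82 between Iohexol 1 and Iohexol 2. The range over the other pairs of replicates was 2.34 to 13.1. Among them, Control 1 gave 8.03 with Control 2 and 10.8 with Control 3, beside 3.24 between Control 2 and Control 3. Control 1 enters every comparison with control. Levels are given as counts per 1000000 counts (CPM) of a library size scaled by edgeR's TMM factors, in sample order 1, 2 and 3 of each group. The limit that a count of 0 allows, 3 counts, was 0.165 to 0.213 CPM. A gene passed the test when its adjusted p was below 0.05 in edgeR's quasi-likelihood test, with Benjamini-Hochberg adjustment over all genes tested, and it was called a differentially expressed gene (DEG) when its log2 fold change was also above 1 or below -1. "Rose" and "fell" are used only of genes that passed, and errors of log2 fold changes are standard errors (SE) from 3 samples against 3. CPM is a share of the library, so fewer cells, less RNA per cell and a change of the rest of the RNA cannot be told apart. Of 12 proximal tubule markers, 7 were above 3 counts in every sample, among them GGT1, PAX8 and MME, while the megalin gene LRP2 never exceeded 3 counts. Summed, they reached 1297 to 1370 CPM in control samples and 1170 to 1324 CPM in iohexol samples, against 454 to 477 CPM for cisplatin and 1230 to 1375 CPM for vancomycin. Single markers moved in opposite ways within these sums. Mean CDH6 was 520 CPM in the control group and 170 with iohexol, while mean PAX8 was 372 and 617. With vancomycin, mean GGT1 was 363 CPM beside 190 in the control group, and mean HAVCR1 was 84.6 beside 190. Epithelial keratins and other epithelial markers summed to 872 to 978 CPM in control samples, and to 707 to 863 (iohexol), 1370.3 to 1425 (cisplatin) and 1290.0 to 1417 CPM (vancomycin). Among these, CDH1 never exceeded 8 counts. Leukocyte and endothelial markers summed to at most 3.69 and 4.28 CPM in any sample. Fibroblast markers (COL1A1 and others) summed to 37.6 to 47.5 CPM in control samples, and to 28.4 to 31.9 (iohexol), 50.5 to 54.6 (cisplatin) and 69.6 to 78.4 CPM (vancomycin), and the part of these marker shifts in the results was not tested.

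Chaperone promoters are known for a DNA element that ATF6 binds together with the CCAAT factor NF-Y, so the promoters of the members were examined first. RefSeq start sites on GRCh38.p14 gave a window of 250 bases before to 50 after the start for 33 of the 36 members. The ER stress element, CCAAT and CCACG with 9 bases of any kind between them on either strand, was found in 8 of these 33 members (24.2%), and in 25 of 27305 genes (0.0916%). Its second form, ATTGG and CCACG with 1 base of any kind between them, was found in 3 of 33 members (9.09%) and in 19 of 27305 genes (0.0696%). These matches are descriptions of letters and not of factor binding. The stretches of 6 members are shown because these genes include the most abundant chaperones and the members that went opposite ways with the drugs, with the element in capitals and in some cases on the opposite strand, read 5′ to 3′ along the gene.
HSPA5 (chr9:125241361-125241439, minus strand): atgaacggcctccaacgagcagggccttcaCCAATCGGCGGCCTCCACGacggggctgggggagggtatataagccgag
HSP90B1 (chr12:103930186-103930369, plus strand): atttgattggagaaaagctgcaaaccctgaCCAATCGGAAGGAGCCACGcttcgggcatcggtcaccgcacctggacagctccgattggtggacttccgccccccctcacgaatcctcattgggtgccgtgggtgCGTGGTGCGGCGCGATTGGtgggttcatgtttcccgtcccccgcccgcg
CALR (chr19:12938359-12938432, plus strand): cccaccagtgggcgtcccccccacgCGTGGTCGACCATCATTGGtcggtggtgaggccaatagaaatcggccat
PDIA6 (chr2:10812823-10812901, minus strand): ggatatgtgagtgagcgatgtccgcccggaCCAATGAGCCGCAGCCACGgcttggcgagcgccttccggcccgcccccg
XBP1 (chr22:28800573-28800651, minus strand): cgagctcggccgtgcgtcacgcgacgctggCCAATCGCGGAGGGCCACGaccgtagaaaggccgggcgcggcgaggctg
HERPUD1 (chr16:56931995-56932065, plus strand): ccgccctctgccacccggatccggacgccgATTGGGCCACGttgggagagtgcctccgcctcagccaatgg
HSP90B1 carried the full element at both ends of the stretch, in opposite orientations, and HERPUD1 carried the second form. The other members with the full element were CRELD2, ERO1B and CANX, and the others with the second form were SDF2L1 and HYOU1. HYOU1 and DNAJC10 also held TGACGTGG (2 of 33 members, against 0.927% of genes), which in HYOU1 overlapped its second-form match.

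In control cells, the lectin calreticulin (CALR) had the highest level of the 36 members per kb of listed gene length, 423 ± 19.4 CPM per kb (SD, n = 3). BiP followed at 246 ± 13.4 and GRP94 at 215 ± 13.4 CPM per kb. The disulfide isomerase P4HB stood at 131 ± 5.72, calnexin (CANX) at 96.9 ± 5.38, PDIA3 at 85.3 ± 1.45, PDIA4 at 82.4 ± 2.82 and PDIA6 at 79.3 ± 1.44 CPM per kb, where PDIA4 differed from PDIA3 and from PDIA6 by less than the sum of their SDs. The sensors were far lower, with 9.63 ± 0.746 CPM per kb for EIF2AK3, 9.52 ± 0.445 for ATF6 and 1.45 ± 0.100 for ERN1, and the first pair did not differ beyond their spread. DERL3 was the lowest at 0.128 ± 0.0403 CPM per kb. The listed lengths sum the exons of all transcripts, so genes with many isoforms are understated.

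The 36 members went down on balance with cisplatin, up on balance with vancomycin, and in both directions with iohexol. Together they held 0.684% ± 0.00918 of all counts in the control group, 0.605% ± 0.00335 with iohexol, 0.523% ± 0.00402 with cisplatin and 0.896% ± 0.0388 with vancomycin (SD, n = 3). With iohexol, 4 of 36 members rose and 7 fell, where 11.2% of all 15657 tested genes rose and 9.77% fell. With cisplatin, 9 of 35 tested members rose and 21 fell, where 29.2% of 15876 genes rose and 30.6% fell. With vancomycin, 21 of 36 members rose and 1 fell, where 29% of 15819 genes rose and 28.8% fell. The median log2 fold change of the members was -0.10 with iohexol, -0.37 with cisplatin and 0.44 with vancomycin, beside medians of 0.01, 0.01 and -0.01 over all tested genes. Only DERL3 went untested, with cisplatin, because its counts were too low. DEGs were few, with 1 member up with iohexol (EIF2AK3, beside 4.02% of all genes), 2 down with cisplatin (ATF6 and DNAJC10, beside 8.72%) and 5 up with vancomycin (ERN1, CREB3, MANF, PPIB and SELENOS, beside 10.8%). The 3 comparisons share the same control samples. No member was a DEG downward with iohexol (1.25%) or vancomycin (7.65%), or upward with cisplatin (7.62%).

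**Figure D1:**
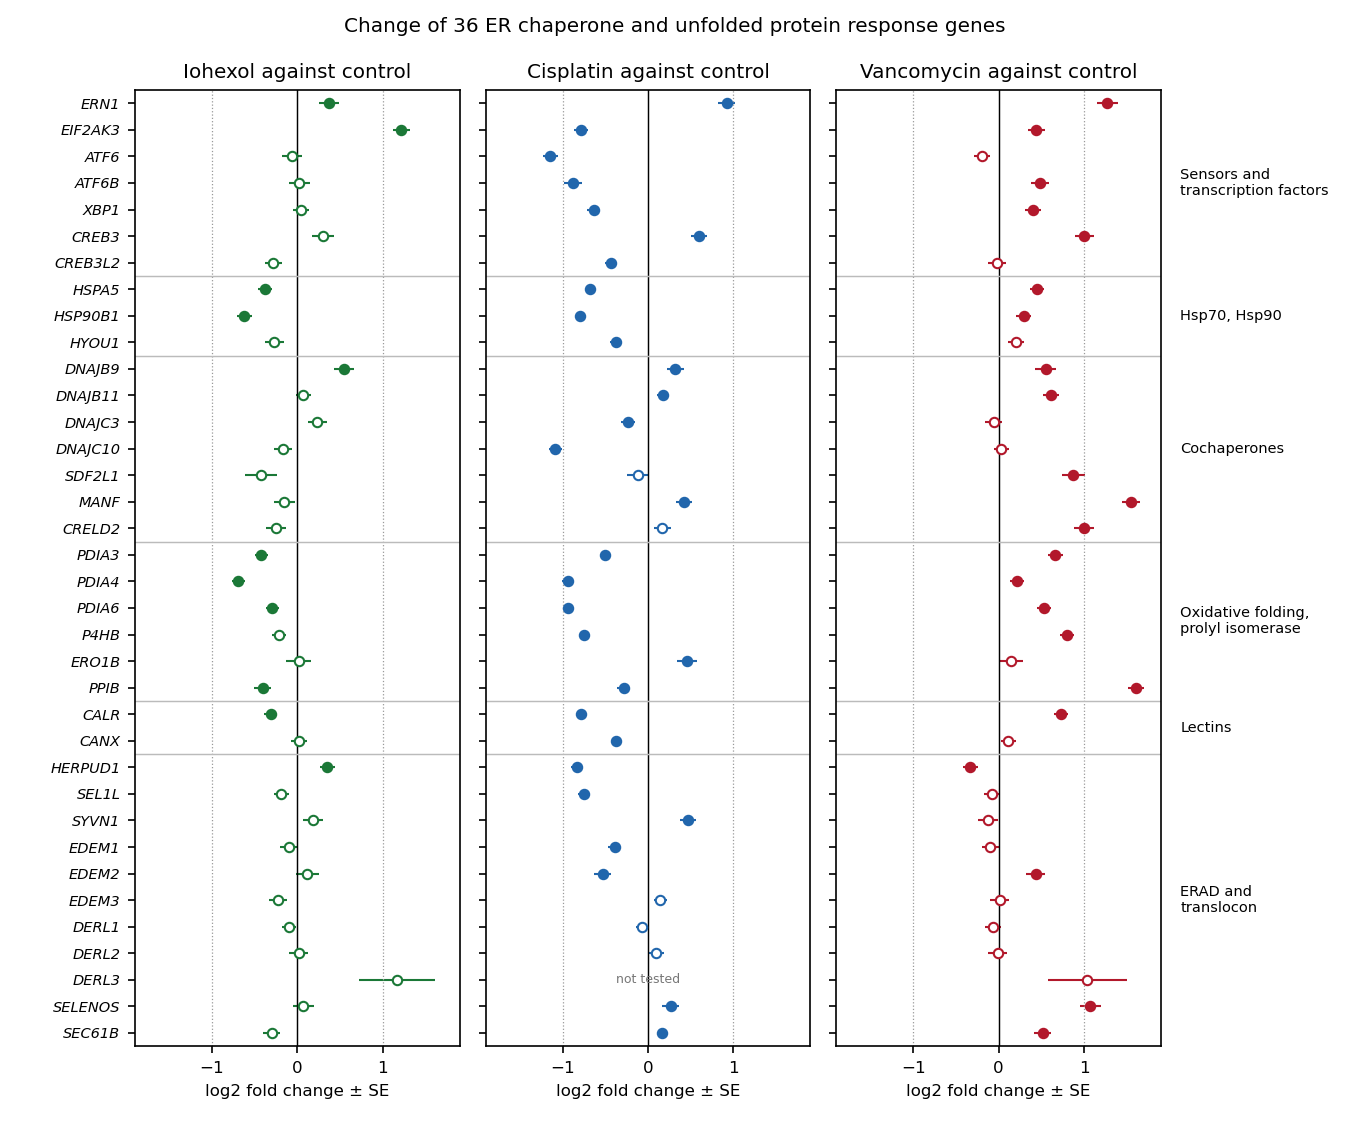
Log2 fold change against control of each of the 36 members, grouped by role, with iohexol, cisplatin and vancomycin; lines are standard errors (3 samples against 3), filled points passed the test (adjusted p below 0.05) and open points did not. Most chaperones and disulfide isomerases lie left of 0 with cisplatin and right of 0 with vancomycin, and EIF2AK3 is the member furthest right with iohexol.

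The number of iohexol calls depended on single libraries. Without Control 2, 2 members rose and 4 fell with iohexol, where the shares of all genes also dropped, to 6.34% and 5.07%. Without Control 3 or Iohexol 1, 2 members rose in each case, beside 7.17% and 7.43% of all genes. Without Iohexol 3, 6 members rose and 8 fell, beside 14.8% and 13.5% of all genes, and DERL3 was also a DEG (2 members in all). DERL3 had only 5, 7 and 10 counts in the control samples. It passed the filter through the iohexol samples, where it was higher, so nothing is read from its call. With library size as the only scaling, 12 members rose and 17 fell with cisplatin, beside 43.6% and 20.4% of all genes, and the median of all tested genes moved from 0.01 to 0.23. The number of members that rose with cisplatin was 5 without Control 3, beside 27.4% of all genes. Without Vancomycin 2, the number of member DEGs with vancomycin was 3, where 1715 of all genes were DEGs upward. Nothing in the labels says that samples came from separate cultures, so p-values measure the spread between these samples, which may be technical.

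Of the 36 members, 32 passed the test with at least 1 drug and 13 did so in both directions. The share of all genes with these or the following patterns was not counted. A large share of all genes passed with cisplatin or vancomycin, so these counts are not read as traits of the members. The most common pattern, in 8 members, was a fall with cisplatin alone among the calls. In 7 members (HSPA5, HSP90B1, PDIA3, PDIA4, PDIA6, PPIB and CALR), levels fell with iohexol and cisplatin and rose with vancomycin. ERN1 and DNAJB9 rose with all 3 drugs, with calls that depended in part on single libraries, and no member fell with all 3. EDEM3, DERL1 and DERL2 passed with none of the drugs, and neither did DERL3.

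BiP and GRP94, the main Hsp70 and Hsp90 chaperones of the ER lumen, fell with iohexol and with cisplatin and rose with vancomycin. HSPA5 (ENSG00000044574, chromosome 9 from 125234853 to 125241330, minus strand, GRCh38) stood at 1008, 971 and 905 CPM in the control samples, 729, 709 and 755 with iohexol, 609, 594 and 605 with cisplatin and 1267, 1471 and 1312 with vancomycin. No sample of any group overlapped those of another group. Its log2 fold change was -0.38 ± 0.08 (adjusted p = 0.00491) with iohexol, -0.67 ± 0.05 (adjusted p = 1.08e-08) with cisplatin and 0.45 ± 0.08 (adjusted p = 8.52e-05) with vancomycin. HSP90B1 (ENSG00000166598, chromosome 12 from 103930107 to 103953645, plus strand) stood at 1079.8, 987 and 959 CPM in the control samples, 623, 605 and 715 with iohexol, 588, 575 and 582 with cisplatin and 1226, 1424 and 1172 with vancomycin. All iohexol and cisplatin samples lay below, and all vancomycin samples above, the controls. The changes of HSP90B1 were -0.62 ± 0.09 (adjusted p = 4.18e-04), -0.80 ± 0.06 (adjusted p = 1.76e-09) and 0.29 ± 0.09 (adjusted p = 0.00654) in the same order. The large Hsp70 relative HYOU1, a nucleotide exchange factor for BiP, fell with cisplatin, at -0.37 ± 0.07 (adjusted p = 3.50e-04), while its values of -0.27 (adjusted p = 0.126) with iohexol and 0.20 (adjusted p = 0.0625) with vancomycin did not pass. With library size as the only scaling its cisplatin value was -0.16 (adjusted p = 0.0837). HSP90B1 and HSPA5 share 21.0% and 18.7% of their tested 31-base words with other genes, of which HSP90B2P had 48 counts and AL354702.1 had 2 counts over all samples.

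Of the 7 cochaperones and small ER proteins, 1 rose and none fell with iohexol, 3 rose and 2 fell with cisplatin, and 5 rose and none fell with vancomycin. Over all tested genes, 11.2% rose and 9.77% fell with iohexol, 29.2% and 30.6% with cisplatin, and 29% and 28.8% with vancomycin. MANF, a small secreted protein of the ER lumen (ENSG00000145050, chromosome 3 from 51385047 to 51389397, plus strand), stood at 20.1, 20.0 and 20.5 CPM in the control samples, 19.9, 18.2 and 15.8 with iohexol, 27.3, 27.2 and 26.5 with cisplatin and 55.6, 64.3 and 63.0 with vancomycin. The cisplatin samples lay above the controls and the vancomycin samples far above all others. MANF changed by 0.42 ± 0.09 (adjusted p = 8.93e-04) with cisplatin and 1.55 ± 0.11 (adjusted p = 1.50e-11) with vancomycin, and its value with iohexol was -0.15 (adjusted p = 0.437). DNAJC10, a disulfide reductase with a J domain that clears misfolded proteins (ENSG00000077232, chromosome 2 from 182716041 to 182794464, plus strand), stood at 222, 188 and 188 CPM in the control samples, 159, 173 and 194 with iohexol, 95.9, 96.1 and 89.9 with cisplatin and 218, 215 and 196 with vancomycin. Only the cisplatin samples lay apart from the controls, and the fall was -1.09 ± 0.07 (adjusted p = 1.13e-09). DNAJB9 (ERdj4), a BiP cochaperone, rose with iohexol, cisplatin and vancomycin, by 0.54 ± 0.12 (adjusted p = 0.00661), 0.32 ± 0.10 (adjusted p = 0.0134) and 0.55 ± 0.12 (adjusted p = 4.32e-04). Its cisplatin call was lost without Control 3 (adjusted p = 0.0666) and without Cisplatin 1 (adjusted p = 0.0824). DNAJB9 shares 3.49% and 6.45% of its exonic bases with PNPLA8 and THAP5 on the opposite strand, which had 1.44 and 1 times its counts.

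The J-domain protein DNAJB11, a cofactor of BiP, rose with cisplatin by 0.17 ± 0.07 (adjusted p = 0.0352), a call lost without any of Control 2, Control 3 and the 3 cisplatin samples, with adjusted p of 0.0573 to 0.155, and it rose with vancomycin by 0.61 ± 0.09 (adjusted p = 3.23e-06). DNAJC3 (p58IPK), an inhibitor of eIF2alpha kinases and BiP cochaperone, fell with cisplatin, at -0.23 ± 0.08 (adjusted p = 0.0146), which did not pass without Cisplatin 2 (adjusted p = 0.0924) or Cisplatin 3 (adjusted p = 0.0656), nor in the fit of all 12 samples (adjusted p = 0.0523). With library size as the only scaling DNAJC3 was at -0.02 (adjusted p = 0.875). SDF2L1, a partner of the ER J proteins, rose with vancomycin by 0.87 ± 0.14 (adjusted p = 8.92e-06). CRELD2, a secreted ER stress-inducible protein, rose with vancomycin by 1.00 ± 0.12 (adjusted p = 9.75e-08) and lay just short of the DEG limit before rounding, while CREB3 lay just past it. SDF2L1 and CRELD2 had their only calls with vancomycin, and their values with cisplatin were -0.12 (adjusted p = 0.444) and 0.17 (adjusted p = 0.16).

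The 4 protein disulfide isomerases, which form and rearrange disulfide bonds, fell with cisplatin and rose with vancomycin. PDIA3 (ERp57), the isomerase that works with calnexin and calreticulin, changed by -0.42 ± 0.08 (adjusted p = 0.00223) with iohexol, -0.51 ± 0.05 (adjusted p = 3.88e-07) with cisplatin and 0.66 ± 0.09 (adjusted p = 4.33e-07) with vancomycin. PDIA4 (ERp72) changed by -0.69 ± 0.08 (adjusted p = 9.38e-05), -0.94 ± 0.06 (adjusted p = 3.74e-10) and 0.21 ± 0.08 (adjusted p = 0.0292), and its vancomycin call was lost without any 1 of the 3 controls or Vancomycin 3, with adjusted p of 0.0587 to 0.0944, with no filter on low counts (adjusted p = 0.0994) and with library size as the only scaling (0.14, adjusted p = 0.152). PDIA6, which acts on IRE1 and on disulfides of client proteins, changed by -0.29 ± 0.08 (adjusted p = 0.0178), -0.94 ± 0.06 (adjusted p = 3.62e-10) and 0.53 ± 0.08 (adjusted p = 8.05e-06). P4HB, the archetypal protein disulfide isomerase, fell with cisplatin, at -0.75 ± 0.05 (adjusted p = 1.79e-09), and rose with vancomycin by 0.80 ± 0.08 (adjusted p = 1.20e-08), and its iohexol value was -0.21 (adjusted p = 0.0913). Of these isomerases, PDIA6 lost its iohexol call without Control 1, Control 2 or Iohexol 2, with adjusted p of 0.0572 to 0.0896. PDIA3 shares 31.6% of its tested 31-base words with other genes, chiefly PDIA3P1, whose counts over all samples were 2845 beside 68598.

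The oxidase ERO1B, which recharges the isomerases, rose with cisplatin by 0.46 ± 0.11 (adjusted p = 0.00232) and had no call with the other drugs. PPIB, the prolyl isomerase cyclophilin B, had the largest rise of any member with vancomycin. PPIB (ENSG00000166794, chromosome 15 from 64155812 to 64163205, minus strand) stood at 47.6, 52.4 and 48.7 CPM in the control samples, 38.8, 38.0 and 33.9 with iohexol, 39.3, 43.7 and 39.1 with cisplatin and 138, 169 and 159.9 with vancomycin. The vancomycin samples were far above the other 9, while the iohexol and cisplatin samples lay below the controls. Its change was 1.61 ± 0.10 (adjusted p = 1.02e-12) with vancomycin, -0.29 ± 0.08 (adjusted p = 0.00525) with cisplatin and -0.41 ± 0.10 (adjusted p = 0.0159) with iohexol. The iohexol call was lost without Control 2 (adjusted p = 0.0857), and with library size as the only scaling the cisplatin value was -0.07 (adjusted p = 0.472).

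Of the lectin chaperones that retain glycoproteins, CALR changed by -0.31 ± 0.08 (adjusted p = 0.0171) with iohexol, -0.78 ± 0.05 (adjusted p = 8.48e-10) with cisplatin and 0.73 ± 0.08 (adjusted p = 7.80e-08) with vancomycin. Calreticulin averaged 1147 ± 52.6 CPM in the control group, 911 ± 58.1 with iohexol, 668 ± 20.3 with cisplatin and 1956 ± 156 with vancomycin (SD, n = 3), and its iohexol call was lost without Control 2 (adjusted p = 0.0947). Its membrane-bound relative calnexin fell with cisplatin, at -0.37 ± 0.06 (adjusted p = 2.17e-05), with values of 0.02 (adjusted p = 0.884) for iohexol and 0.11 (adjusted p = 0.256) for vancomycin.

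**Figure D2:**
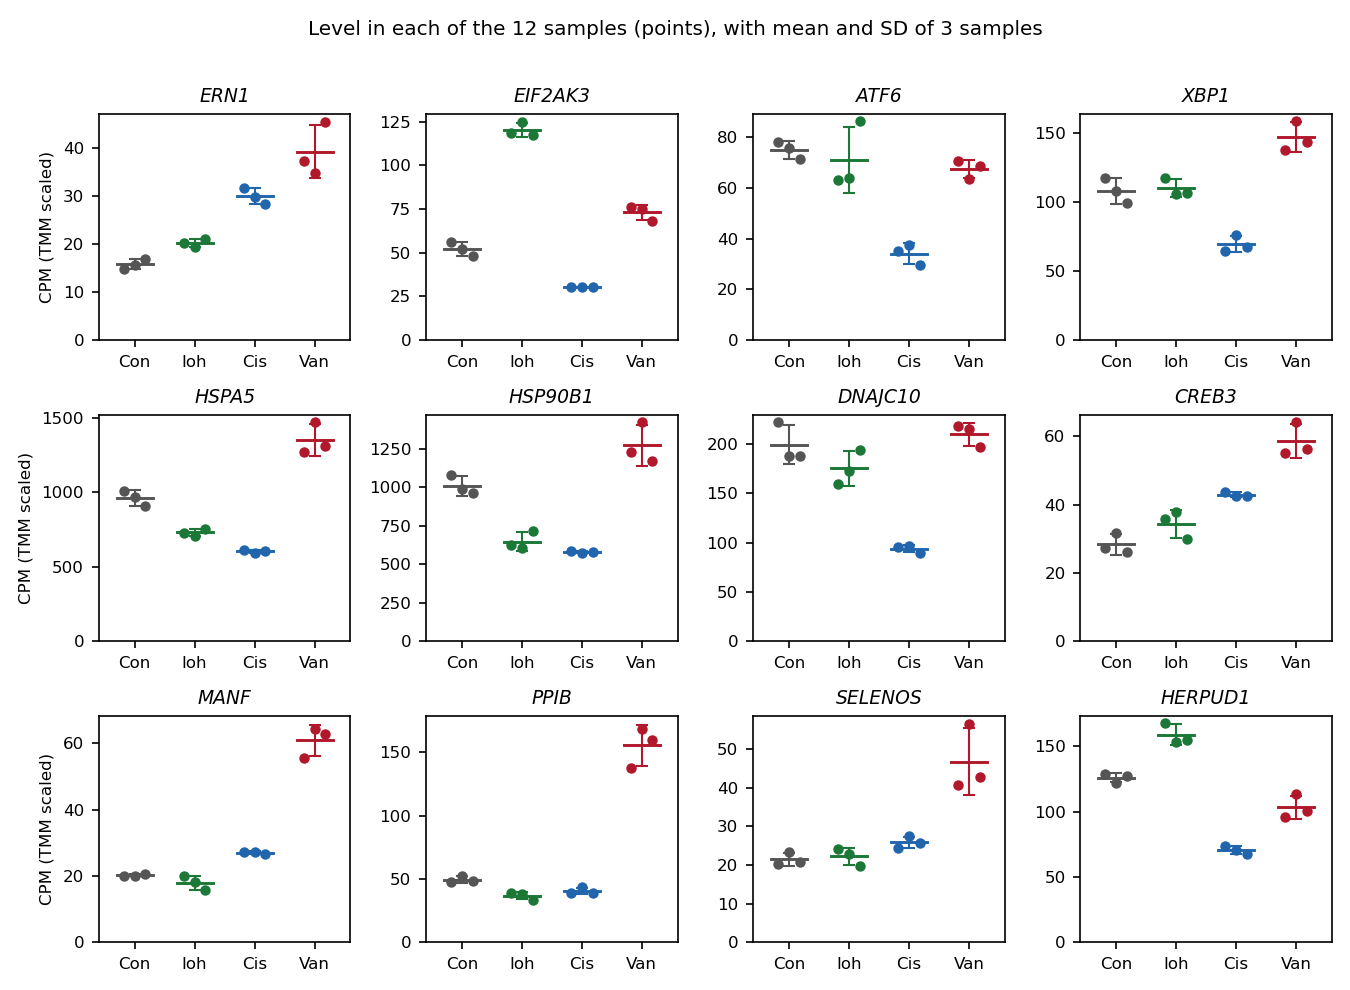
CPM in each of the 12 samples, for 12 members with a panel each; points are samples, bars the mean and SD of 3 samples, and each CPM axis starts at 0 (Con, control; Ioh, iohexol; Cis, cisplatin; Van, vancomycin). Vancomycin samples sit above all others for PPIB and MANF, iohexol samples above all others for EIF2AK3, and cisplatin samples below all others for HSPA5, DNAJC10 and HERPUD1.

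The 3 sensors differed from one another. EIF2AK3, which encodes the kinase PERK (ENSG00000172071, chromosome 2 from 88556741 to 88627576, minus strand), stood at 56.3, 52.4 and 48.2 CPM in the control samples, 118, 124 and 117 with iohexol, 30.6, 30.2 and 30.3 with cisplatin and 76.3, 75.0 and 68.3 with vancomycin. The 4 groups did not overlap, with iohexol the highest and cisplatin the lowest. EIF2AK3 changed by 1.22 ± 0.09 (adjusted p = 3.80e-06) with iohexol, -0.78 ± 0.08 (adjusted p = 3.59e-07) with cisplatin and 0.44 ± 0.10 (adjusted p = 5.12e-04) with vancomycin, and it was the only member DEG with iohexol. ERN1, the IRE1alpha kinase and RNase (ENSG00000178607, chromosome 17 from 64039142 to 64130819, minus strand), stood at 14.7, 15.7 and 16.9 CPM in the control samples, 20.2, 19.4 and 21.0 with iohexol, 31.6, 29.7 and 28.3 with cisplatin and 37.3, 34.8 and 45.4 with vancomycin. All samples of each drug lay above the controls, and no 2 groups overlapped. ERN1 changed by 0.37 ± 0.12 (adjusted p = 0.0431), 0.92 ± 0.10 (adjusted p = 4.80e-07) and 1.27 ± 0.12 (adjusted p = 5.81e-09) in that order, and the iohexol call was lost without any 1 of the 3 controls, Iohexol 1 or Iohexol 2, with adjusted p of 0.0806 to 0.163. It was also lost with DESeq2 (adjusted p = 0.0642) and with no filter on low counts (adjusted p = 0.154). ATF6 (ENSG00000118217, chromosome 1 from 161766294 to 161964070, plus strand) stood at 78.2, 75.7 and 71.3 CPM in the control samples, 63.3, 63.9 and 86.2 with iohexol, 35.1, 37.6 and 29.5 with cisplatin and 70.6, 63.5 and 68.5 with vancomycin. Only cisplatin gave a call, -1.14 ± 0.09 (adjusted p = 6.17e-09), the largest fall among the members. The vancomycin samples lay just below the controls, and the value with vancomycin was -0.19 (adjusted p = 0.0821) and that with iohexol -0.06 (adjusted p = 0.761).

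The transcription factors also differed among themselves. ATF6B, the second ATF6, fell with cisplatin, at -0.88 ± 0.10 (adjusted p = 1.08e-06), and rose with vancomycin by 0.49 ± 0.11 (adjusted p = 3.92e-04). XBP1, the transcription factor spliced by IRE1 (ENSG00000100219, chromosome 22 from 28794555 to 28800597, minus strand), stood at 117, 108 and 98.9 CPM in the control samples, 117, 106 and 107 with iohexol, 64.9, 76.0 and 67.6 with cisplatin and 138, 159 and 144 with vancomycin. Cisplatin samples lay below and vancomycin samples above the controls, at -0.64 ± 0.08 (adjusted p = 2.49e-06) and 0.40 ± 0.09 (adjusted p = 6.86e-04), and iohexol samples overlapped them at 0.05 (adjusted p = 0.776). Counts per gene do not separate spliced from unspliced XBP1 RNA, nor do they measure phosphorylation or cleavage of the sensors. CREB3, a Golgi-cleaved factor of the same kind as ATF6 (ENSG00000107175, chromosome 9 from 35732335 to 35737004, plus strand), stood at 27.2, 31.7 and 26.0 CPM in the control samples, 35.7, 37.7 and 29.8 with iohexol, 43.7, 42.5 and 42.5 with cisplatin and 55.1, 64.2 and 56.4 with vancomycin. It rose with cisplatin by 0.60 ± 0.09 (adjusted p = 2.11e-05) and with vancomycin by 1.00 ± 0.11 (adjusted p = 3.80e-08). CREB3 shares 3.21% of its exonic bases with TLN1 and 7.3% with GBA2, on the opposite strand, with 7.28 and 0.828 times its counts, and the strand setting of the counting is not known. GBA2 changed by 0.62 with cisplatin and 0.78 with vancomycin on the log2 scale, and TLN1 by -0.15 and 0.23. The part of this overlap in the CREB3 values was not tested. CREB3L2, a related factor of secretory cells, fell with cisplatin, at -0.44 ± 0.07 (adjusted p = 5.24e-05), and had no call with the other drugs.

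Of the 11 degradation and translocon genes, 1 rose and none fell with iohexol, 3 rose and 4 fell of 10 tested with cisplatin, and 3 rose and 1 fell with vancomycin. Several of these counts lie near the shares of all tested genes that rose and fell. Those shares were 11.2% and 9.77% with iohexol, 29.2% and 30.6% with cisplatin, and 29% and 28.8% with vancomycin. HERPUD1, a membrane scaffold of the degradation complex (ENSG00000051108, chromosome 16 from 56932048 to 56944863, plus strand), stood at 129, 122 and 127 CPM in the control samples, 168, 154 and 155 with iohexol, 74.0, 70.6 and 67.4 with cisplatin and 95.9, 113 and 100.5 with vancomycin. No 2 groups overlapped, with iohexol the highest and cisplatin the lowest. It changed by 0.35 ± 0.08 (adjusted p = 0.0122), -0.84 ± 0.07 (adjusted p = 7.70e-09) and -0.33 ± 0.09 (adjusted p = 0.00268), and was the only member that fell with vancomycin. The iohexol call was lost without Control 2, Control 3 or Iohexol 1, with adjusted p of 0.0571 to 0.105. SELENOS, a selenoprotein that recruits the p97 ATPase (ENSG00000131871, chromosome 15 from 101270817 to 101277500, minus strand), stood at 20.3, 23.4 and 20.7 CPM in the control samples, 24.1, 22.8 and 19.8 with iohexol, 24.5, 27.4 and 25.8 with cisplatin and 40.6, 56.5 and 42.8 with vancomycin. The vancomycin samples lay above all others, at 1.07 ± 0.12 (adjusted p = 9.52e-08). Its cisplatin value of 0.27 ± 0.10 (adjusted p = 0.0285) was lost without Control 1, Control 3, Cisplatin 2 or Cisplatin 3, with adjusted p of 0.0514 to 0.119.

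The ubiquitin ligase SYVN1 (HRD1) and its adaptor SEL1L went opposite ways with cisplatin. SEL1L fell, at -0.74 ± 0.07 (adjusted p = 7.76e-08), and SYVN1 rose, at 0.47 ± 0.09 (adjusted p = 2.92e-04), and neither had a call with iohexol or vancomycin. SYVN1 shares 7.24% of its exonic bases with FAU on the same strand and 6.48% with MRPL49 on the opposite strand, with 4.24 and 1.62 times its counts, and with cisplatin these changed by 0.44 and 0.56 on the log2 scale. Of the mannose-trimming or mannosidase-like proteins, EDEM1 fell with cisplatin, at -0.39 ± 0.07 (adjusted p = 2.47e-04), and was at -0.17 (adjusted p = 0.0506) with library size as the only scaling. EDEM2 fell with cisplatin, at -0.53 ± 0.10 (adjusted p = 2.18e-04), and rose with vancomycin by 0.43 ± 0.11 (adjusted p = 0.00171). EDEM3 had values of -0.22, 0.15 and 0.01 with iohexol, cisplatin and vancomycin and no call. The derlins are membrane proteins of the degradation channel, and DERL1 and DERL2 lay between -0.10 and 0.10 with every drug. DERL3 had counts of 5, 7 and 10 in the control samples, 22, 16 and 11 with iohexol, 9, 1 and 3 with cisplatin and 19, 16 and 14 with vancomycin, too few to read a level with cisplatin, and 77.0% of its exonic bases lie in SMARCB1 on the opposite strand, which had 161 times its counts. SEC61B, a small subunit of the translocon, rose with vancomycin by 0.51 ± 0.10 (adjusted p = 8.66e-05) and with cisplatin by 0.17 ± 0.06 (adjusted p = 0.0355), the latter lost without any of Control 2, Control 3 and the 3 cisplatin samples, with adjusted p of 0.079 to 0.13.

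The drugs were then compared with each other in a fit of all 12 samples, which tests the difference itself. These contrasts share their samples. Their counts include DERL3 (1 to 22 counts per sample), which passed the filter only through the groups where it was higher, so nothing is read from its contrasts. Between cisplatin and vancomycin, 30 of 36 members were lower with cisplatin and 1 was higher, where 34.7% of all tested genes were lower and 30% higher, and the median difference was -0.86 on the log2 scale. Between iohexol and vancomycin, 23 members were lower with iohexol and 3 were higher, beside 29% and 27.6% of all genes, with a median of -0.47. Iohexol against cisplatin gave 17 members higher and 8 lower, beside 27.9% and 26% of all genes, with a median of 0.18. PPIB was lower with iohexol than with vancomycin by 2.07 ± 0.10 (adjusted p = 6.15e-13), and with cisplatin than with vancomycin it differed by -1.93 ± 0.09 (adjusted p = 8.87e-13). P4HB and CALR differed by -1.59 ± 0.07 (adjusted p = 3.07e-13) and -1.55 ± 0.08 (adjusted p = 9.95e-13) between cisplatin and vancomycin. The only member higher with cisplatin than with vancomycin was SYVN1, by 0.55 ± 0.11 (adjusted p = 1.32e-04). That number was 2 without Control 1 or Iohexol 3, beside 29.7% and 30.9% of all genes. These samples enter this contrast through the shared estimate of spread and the scaling. With library size as the only scaling, 5 members were higher and 23 lower with cisplatin than with vancomycin, beside 45.8% and 23.1% of all genes. In the same setting 14 were higher and 12 lower with iohexol than with cisplatin, beside 23.1% and 33.1% of all genes.

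**Figure D3:**
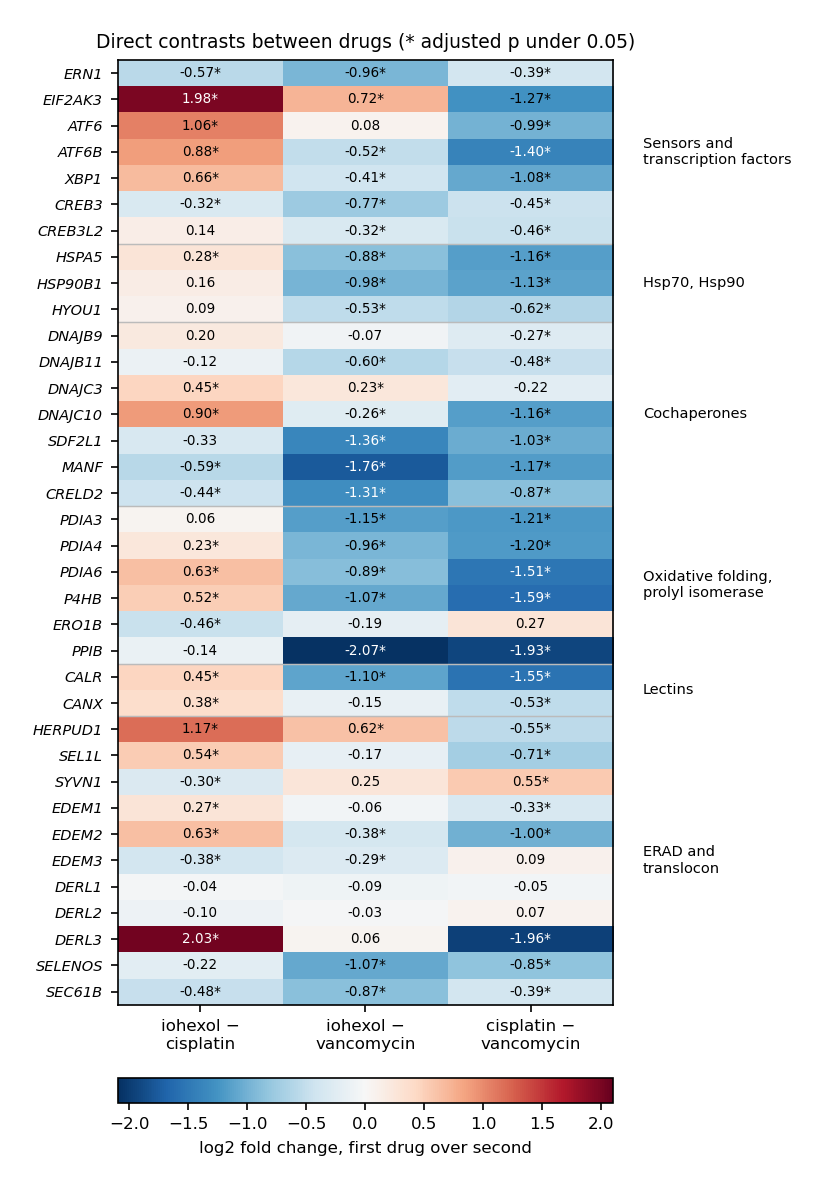
Heat map of the log2 fold change of each of the 36 members (rows, by role) between pairs of drugs (columns, first drug over second), from the fit of all 12 samples; blue is below 0, red above 0, and an asterisk marks an adjusted p below 0.05. The cisplatin against vancomycin column is blue for nearly all members, with SYVN1 the only red cell that passed. EIF2AK3, HERPUD1 and DNAJC3 are red with an asterisk for iohexol against both other drugs. The DERL3 row rests on 1 to 22 counts per sample.

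Iohexol differed from both other drugs in several members, upward in EIF2AK3, HERPUD1 and DNAJC3. EIF2AK3 was higher with iohexol than with cisplatin by 1.98 ± 0.09 (adjusted p = 3.01e-13) and than with vancomycin by 0.72 ± 0.08 (adjusted p = 2.95e-07). HERPUD1 was higher by 1.17 ± 0.08 (adjusted p = 2.79e-10) and 0.62 ± 0.08 (adjusted p = 1.59e-06) against the same drugs. DNAJC3 was higher by 0.45 ± 0.10 (adjusted p = 5.62e-04) and 0.23 ± 0.10 (adjusted p = 0.0446). ERN1, by contrast, was lower with iohexol than with cisplatin by 0.57 ± 0.11 (adjusted p = 2.70e-04) and lower than with vancomycin by 0.96 ± 0.11 (adjusted p = 4.44e-07). MANF, CRELD2, SEC61B and CREB3 were also lower with iohexol than with cisplatin, at -0.59, -0.44, -0.48 and -0.32 (adjusted p = 8.81e-05, 0.00418, 3.20e-04 and 0.0160). Against vancomycin these members stood at -1.76, -1.31, -0.87 and -0.77 (adjusted p = 2.17e-11, 1.02e-08, 2.46e-07 and 3.88e-06). DNAJB9, which rose with each drug, differed by 0.20 (adjusted p = 0.155) between iohexol and cisplatin and -0.07 (adjusted p = 0.641) between iohexol and vancomycin, which did not pass. HSPA5 was higher with iohexol than with cisplatin by 0.28 ± 0.07 (adjusted p = 0.00278), while HSP90B1 at 0.16 ± 0.08 (adjusted p = 0.124) did not pass. Both were lower with cisplatin than with vancomycin by 1.16 and 1.13 (adjusted p = 3.00e-11 and 4.12e-10). EDEM3, with no call against control, was lower with iohexol than with cisplatin by 0.38 ± 0.10 (adjusted p = 0.00303) and than with vancomycin by 0.29 ± 0.10 (adjusted p = 0.0179).

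The promoter elements shown above did not mark a single direction across the drugs. Of the 8 members with the full element, none rose and 4 fell with iohexol, and 1 rose and 6 fell with cisplatin. With vancomycin 6 of them rose and none fell. Of the 3 members with the second form, 1 rose with iohexol, 2 fell with cisplatin, and 1 rose and 1 fell with vancomycin. Of the 11 members with the full element or its second form, 1 rose and 4 fell with iohexol, 1 rose and 8 fell with cisplatin, and 7 rose and 1 fell with vancomycin. Of the other 22 members with a promoter, 3 rose and 2 fell with iohexol, 8 rose and 12 fell with cisplatin, and 13 rose and none fell with vancomycin. These counts stand beside shares over all genes of 11.2% and 9.77% with iohexol, 29.2% and 30.6% with cisplatin, and 29% and 28.8% with vancomycin. HERPUD1, with the second form, was the member that fell with vancomycin, while SDF2L1, with the same form, rose. ERO1B was the only member with an element that rose with cisplatin.

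Gene length moved with the effects of vancomycin and cisplatin. Over all protein-coding genes, the median log2 fold change with vancomycin was 0.48 at listed lengths of 2000 bases or less, 0.14 from 2000 to 4000, 0.00 from 4000 to 6000 and -0.14 above 6000. In these classes 5 of 5, 8 of 9, 7 of 11 and 1 of 11 members rose with vancomycin, beside 55.7%, 37.6%, 29.9% and 23.0% of all protein-coding genes. Counting every tested member, 4 of 5, 9 of 9, 8 of 11 and 10 of 11 lay above the median of their class. Of the members that rose with vancomycin, SEC61B lay only 0.03 above its class median, and EDEM2 lay below it, at -0.05. With cisplatin the class medians were 0.20, 0.12, 0.03 and -0.21, and 1 of 5, 3 of 8, 4 of 11 and 4 of 11 tested members lay above them. SEC61B, which rose with cisplatin, lay below its class median, at -0.03. With iohexol the class medians were -0.04, 0.01, 0.01 and -0.01, and 2 of 5, 5 of 9, 6 of 11 and 3 of 11 members lay above them. The part of length in the results was not tested further.

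**Figure D4:**
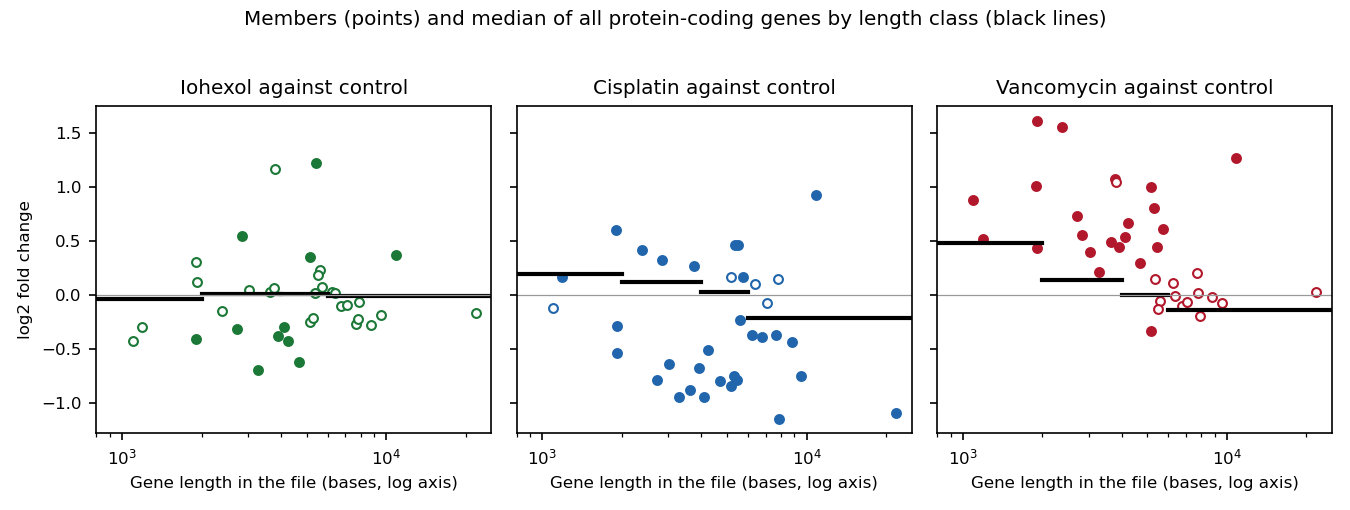
Log2 fold change of each member against its listed gene length in bases (log axis), a panel for each drug, with black lines for the median of all protein-coding genes in each of 4 length classes; filled points passed the test and open points did not. With vancomycin the lines step down with length and most members lie above them, and with cisplatin most members lie below the lines.

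Other genes of the pathway were counted in 8 fixed lists of 157 genes in all, of which 154 were tested. With iohexol 15 rose and 20 fell, with cisplatin 39 rose and 67 fell, and with vancomycin 60 rose and 38 fell. Over all tested genes the shares given above were 11.2% and 9.77%, 29.2% and 30.6%, and 29% and 28.8%, and the lists below were counted in the same fits. The median log2 fold changes were -0.08, -0.11 and 0.10. Of the 12 genes of PERK and ATF4 output, 5 rose and none fell with iohexol, among them the stress factor DDIT3 (CHOP) by 1.26 ± 0.14 (adjusted p = 6.90e-05), CHAC1, which degrades glutathione, by 1.35 ± 0.19 (adjusted p = 3.48e-04), and the stress protein NUPR1 by 1.36 ± 0.36 (adjusted p = 0.0208). NUPR1 was low, at 1.02, 1.63 and 1.25 CPM in the control samples and 4.42, 3.77 and 1.74 CPM with iohexol. Iohexol 3 thus lay near the highest control. The 5 also include ASNS, a gene with few counts, at 0.33 to 1.07 CPM in control samples and 1.45 to 1.85 CPM with iohexol. It passed the filter through the iohexol samples, where it was higher, so nothing is read from its call. With cisplatin 5 of the 12 rose and 4 fell. ATF3, a stress-inducible transcription factor, rose by 1.62 ± 0.08 (adjusted p = 1.34e-11) and PPP1R15A (GADD34), a regulator of the eIF2alpha phosphatase, by 1.50 ± 0.09 (adjusted p = 2.80e-10), while DDIT4, an mTORC1 inhibitor, fell, at -1.99 ± 0.08 (adjusted p = 6.71e-13). With vancomycin 7 rose and 1 fell, and the DEGs with the smallest p were PPP1R15A at 2.30 ± 0.11 (adjusted p = 1.95e-14), CEBPB at 1.73 ± 0.09 (adjusted p = 1.92e-13) and ATF3 at 1.79 ± 0.11 (adjusted p = 7.30e-13). NUPR1, chosen after its values were seen, had the largest log2 fold change of the list with vancomycin, 3.63 ± 0.22 (adjusted p = 1.40e-12).

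Among 28 other foldases and cochaperones, 2 rose and 10 fell with iohexol, 6 rose and 13 fell with cisplatin, and 17 rose and 4 fell with vancomycin. The chaperone CLGN rose with iohexol by 1.63 ± 0.32 (adjusted p = 0.00363). The BiP exchange factor SIL1 fell with cisplatin, at -1.57 ± 0.14 (adjusted p = 3.21e-08), as did the prolyl isomerase FKBP9, at -1.19 ± 0.08 (adjusted p = 6.64e-10). The collagen chaperone SERPINH1, the oxidase QSOX1 and PDIA5 rose with vancomycin by 1.16, 1.16 and 1.10 on the log2 scale. Of 24 translocon and signal peptidase genes, 2 rose and 1 fell with iohexol, 7 rose and 5 fell with cisplatin, and 10 rose and 8 fell with vancomycin, where the translocon subunit SEC61G rose by 1.68 ± 0.11 (adjusted p = 2.50e-12) while TRAM1 fell, at -1.21 ± 0.09 (adjusted p = 9.05e-11), as did the peptidase subunit SPCS3, at -1.11 ± 0.09 (adjusted p = 5.27e-10). N-glycosylation gave 1 fall among 24 genes with iohexol, 4 rises and 16 falls with cisplatin, with ALG9 at -1.03 ± 0.21 (adjusted p = 3.96e-04), and 8 rises and 4 falls with vancomycin.

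Among 25 other degradation genes, 3 rose and 3 fell with iohexol, 9 rose and 7 fell with cisplatin, and 7 rose and 10 fell with vancomycin. The lipid droplet and degradation factor AUP1 rose with cisplatin by 1.02 ± 0.07 (adjusted p = 1.50e-09) and with vancomycin by 1.14 ± 0.09 (adjusted p = 2.20e-10). FAM8A1 rose with cisplatin by 1.36 ± 0.09 (adjusted p = 1.27e-09), and the lectin OS9 rose with vancomycin by 1.36 ± 0.10 (adjusted p = 4.93e-11). CRELD1, a relative of CRELD2 that was placed in this list, rose with vancomycin by 1.61 ± 0.12 (adjusted p = 5.88e-11). Its rise is not read as one of a degradation gene. Of 24 genes of COPII transport and KDEL receptors, none rose and 3 fell with iohexol, 3 rose and 14 fell with cisplatin, and 8 rose and 5 fell with vancomycin. The coat subunit SEC24D fell with cisplatin, at -1.06 ± 0.08 (adjusted p = 4.00e-09), as did ERGIC1, at -1.01 ± 0.06 (adjusted p = 2.76e-10), and SEC13, another coat subunit, rose with vancomycin by 1.00 ± 0.09 (adjusted p = 2.80e-09). Of 11 tested other transducers, 1 rose and 2 fell with iohexol, 3 rose and 6 fell with cisplatin, and 1 rose and 3 fell with vancomycin, where the kinase MAP3K5 (ASK1) fell, at -1.04 ± 0.12 (adjusted p = 6.92e-08). The 6 ER-phagy receptors gave 2 rises with iohexol, 2 rises and 2 falls with cisplatin, and 2 rises and 3 falls with vancomycin, with CALCOCO1 at 1.10 ± 0.12 (adjusted p = 4.40e-08).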

How the data were processed

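Poly-A mRNA libraries of 12 HK-2 cell samples were made with a NEBNext Ultra RNA kit. Per the labels, the submitters' processing notes name CASAVA 1.8, fastp, HISAT2 2.0.5, featureCounts 1.5.0-p3 and DESeq2 1.20.0. The deposited table holds raw counts per gene, which the authors did not normalize, for 58735 genes with positions. The annotation release and the strand setting of the counting are not given in the sources used here. The gene spans of all 36 members match GENCODE 29 on GRCh38. Fragment counts per gene favour long transcripts, so levels between genes are given per kb.

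Counts were tested with edgeR 4.0.16 in R 4.3.3 by the quasi-likelihood test, with TMM scaling and filterByExpr (at least 10 counts, 15 in total). Each drug was fitted with the 3 controls, and drugs were compared in a fit of all 12 samples. A gene passed at an adjusted p (Benjamini-Hochberg) below 0.05 and was a DEG with a log2 fold change above 1 or below -1. Total counts of 14057282 to 18177109 make counting error matter most for genes near the floor of 3 counts. Floors cover counting error only, while SDs and SEs cover the spread between samples, whose chi-square per degree of freedom was 2.34 to 17.5 between replicates. The scripts were tested on simulated data. Alternatives were RLE factors, library size only, no filter, at least 10 counts in every sample, DESeq2 1.42.0, limma-voom (limma 3.58.1), a replicate block, other sets of samples in the fit, and leaving out each sample.

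The members and lists were chosen with earlier results of these data known. All members are named. Values in all 12 samples are given for members that were a DEG with at least 1 drug, for HSPA5, HSP90B1, XBP1, HERPUD1, ERN1, EIF2AK3 and ATF6, and for members near the floor. From each other list, at most 3 DEGs per drug with the smallest p and no overlap with the controls are named. Shared exonic bases came from GENCODE 29, shared 31-base words from its transcripts, and promoters from RefSeq (GRCh38.p14).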

Additional observations from a re-analysis of the deposited data

How the results depend on the processing

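No member that passed the test against control reversed its direction under any alternative run. Of the counts of members that passed or were DEGs, these moved by more than 1.5 times. With iohexol, 11 members fell with no filter on low counts or in the fit of all 12 samples, against 7. Over all genes, 5.97% and 13.4% fell in these 2 settings, against 9.77%. With library size as the only scaling, 1 member was a DEG upward and 0 downward with cisplatin, against 0 and 2. Over all genes, 1849 were DEGs upward and 997 downward in that setting, against 1210 and 1384. With vancomycin 2 members fell, against 1, beside 33% of all genes against 28.8%. DEGs upward with vancomycin were 3 members, against 5, beside 1499 of all genes against 1713. The same scaling gave 5 members higher with iohexol than with vancomycin, against 3, beside 39.1% of all genes against 27.6%. It gave 5 members higher with cisplatin than with vancomycin, against 1, beside 45.8% of all genes against 30%. That last number of members was 2 with RLE factors, 10 counts in every sample, DESeq2, limma-voom and a fit of the 6 samples compared. Beside it stood 30.3% to 35.2% of all genes. The causes were not tested.

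Leaving out each sample in turn, the number that rose with iohexol was 2 to 6 and that fell 4 to 8, with 1 to 2 DEGs upward and 0 downward. The second DEG was DERL3, a gene with few counts from which nothing is read. Over all genes, 6.34% to 14.8% rose and 5.07% to 13.5% fell with iohexol in these runs. DEGs over all genes numbered 475 to 731 upward and 174 to 214 downward. With cisplatin 5 to 9 members rose and 20 to 22 fell, with 0 DEGs upward and 2 downward. Beside them, 25.1% to 29.2% of all genes rose and 27.1% to 31.3% fell, with 1180 to 1333 DEGs upward and 1403 to 1454 downward. With vancomycin 20 to 21 members rose and 1 fell, with 3 to 6 DEGs upward. Beside them, 25.9% to 27.5% of all genes rose and 25.1% to 26.5% fell, with 1678 to 1875 DEGs upward. Between drugs, 16 to 17 members were higher and 6 to 9 lower with iohexol than with cisplatin. Beside them stood 24.8% to 27.7% and 22% to 25.7% of all genes. With iohexol than with vancomycin, 2 to 3 members were higher and 20 to 24 lower, beside 24.2% to 27.1% and 25.9% to 28.6%. With cisplatin than with vancomycin, 1 to 2 members were higher and 29 to 31 lower, beside 26.9% to 30.9% and 31.8% to 35.5%.

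Samples with the same replicate number share only that number. Deviations of same-numbered samples from their group means had mean correlations of -0.10 for iohexol and control, 0.02 for cisplatin and control, and 0.07 for vancomycin and control, over 3 pairs each. With the replicate number as a block, 2 members rose and 4 fell with iohexol. The shares of all genes also dropped there, to 7.54% and 5.84%. In the same setting 2 members fell with vancomycin, beside 30.5% of all genes. The number higher with cisplatin than with vancomycin was 2, beside 29.3% of all genes. The iohexol calls not made under the block were those of ERN1 (adjusted p = 0.130), PDIA6 (0.0938), PPIB (0.0631), CALR (0.0582) and HERPUD1 (0.0640).

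Over the alternatives, single members kept their side of the threshold in 467 values with iohexol, lost a call in 21 and gained a call in 15. With cisplatin these numbers were 456, 29 and 5, and with vancomycin 491, 6 and 6. The cisplatin calls of DNAJB11, SEC61B and SELENOS were also lost with no filter (adjusted p = 0.156, 0.171 and 0.0821) and in the fit of all 12 samples (0.0736, 0.159 and 0.0829), and the iohexol call of PDIA6 with library size only (0.0524).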
